A study of Homo sapiens with 36 samples.

Results

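The gene GATA2, on human chromosome 3, was examined as a target of its own protein. A site counted as part of the GATA2 locus if the summit of a peak lay in the gene or within 120 kb of either end of it, and peaks of all libraries that overlapped were merged into 1 site. This gave 13 sites, built from 137 peaks, of 17277 sites in the whole series. The gene spans chr3:128479422-128493201 of hg38 on the minus strand. It has a distal start at base 128493201 and a proximal start at base 128488530, 4.67 kb further into the gene. Distances below are counted from the distal start, downstream in the direction of transcription.

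GATA2 is a transcription factor with a pair of zinc fingers that blood stem and progenitor cells need and that is switched off as red cells mature. In mouse progenitors it binds its own gene at sites close upstream of the start, at an enhancer in an intron and at a distal upstream enhancer, and these sites feed its own transcription. T354M is a missense change in the second zinc finger that is inherited in families with myeloid leukaemia. The gene EEFSEC, which encodes the elongation factor for selenocysteine, and DNAJB8, which encodes a chaperone, lie downstream of GATA2, and the antisense transcript GATA2-AS1 overlaps the distal start of GATA2 and runs on upstream.

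Binding was measured by CUT&Tag, in which an antibody brings a transposase to chromatin and the released fragments are sequenced. All cells were HUDEP-2, an immortalised human line of erythroid progenitors, infected with lentivirus and sorted for GFP. GATA2-low cells (genotype label GATA2+/-) carried HA-tagged GATA2 with the T354M change (HA-T354M), HA-tagged GATA2 without it (HA-GATA2) or an empty vector, and wild-type cells carried the empty vector. Libraries made with anti-GATA2 covered all 4 kinds of cells and libraries made with anti-HA the 3 kinds of GATA2-low cells, with 4 libraries in each of these 7 groups. The tagged proteins were expressed from a virus that holds GATA2 coding sequence, the anti-GATA2 antibody does not tell tagged from resident protein, and the labels do not say which part of the gene is altered in GATA2-low cells or whether libraries came from separate cultures. The p-values below therefore measure the spread among these libraries only, and that spread may be technical.

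The lists differed in length, and that bears on every count of sites. With anti-GATA2 they held 2779 to 6311 peaks in HA-T354M cells, 7064 to 12171 in HA-GATA2 cells, 1823 to 3648 in GATA2-low empty-vector cells and 6555 to 9121 in wild-type cells. With anti-HA they held 426 to 744 peaks in HA-T354M cells, 1912 to 6065 in HA-GATA2 cells and 1 to 6 in empty-vector cells. Read totals were not among the values, so a relative depth was estimated from the peak caller's lowest background. It ran from 0.42 to 0.587 in HA-T354M, 0.427 to 0.434 in HA-GATA2, 0.153 to 0.214 in GATA2-low empty-vector and 0.222 to 0.302 in wild-type anti-GATA2 libraries. The empty-vector GATA2-low libraries were thus the shallowest, and a missing peak there is a peak not detectable at that depth. In wild-type cells 8 of 8 erythroid marker genes had an anti-GATA2 peak in at least 3 of 4 libraries, against 1 of 8 markers of other blood cells, CD4.

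The 2 promoters of GATA2 are shown because peaks lay on or beside both. They are 300 bases each, from 250 bases before a start to 50 after it, as given by RefSeq for GRCh38.p14 on the minus strand. Capitals mark E-boxes, the letters CANNTG read by TAL1 and its partners, which often bind beside GATA2.
Distal promoter, chr3:128493152-128493451: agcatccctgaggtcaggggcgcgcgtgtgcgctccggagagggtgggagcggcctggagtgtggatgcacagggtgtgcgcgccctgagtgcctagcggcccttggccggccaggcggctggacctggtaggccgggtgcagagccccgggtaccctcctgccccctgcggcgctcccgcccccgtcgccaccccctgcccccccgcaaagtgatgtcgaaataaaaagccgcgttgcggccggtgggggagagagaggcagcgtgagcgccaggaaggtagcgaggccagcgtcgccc
Proximal promoter, chr3:128488481-128488780: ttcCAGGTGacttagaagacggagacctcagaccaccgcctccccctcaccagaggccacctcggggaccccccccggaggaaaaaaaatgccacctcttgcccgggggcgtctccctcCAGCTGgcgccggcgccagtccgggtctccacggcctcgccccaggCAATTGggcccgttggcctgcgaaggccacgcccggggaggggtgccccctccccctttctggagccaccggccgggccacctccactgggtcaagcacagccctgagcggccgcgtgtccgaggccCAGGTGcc
Neither window held the GATA motif (GATA with A or T just before it and with A or G just after it, on either strand), which 24.97% of 35116 RefSeq promoters hold. The proximal window held 4 E-boxes, CAGGTG at bases 4 to 9 and 293 to 298, CAGCTG at bases 120 to 125 and CAATTG at bases 166 to 171, and the distal window held none. CANNTG was present in 68.68% of all promoters. Both windows were rich in G and C, at 72.3% in the distal and 71.3% in the proximal promoter. A missing motif says only that these letters are not in the window.

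The sites formed a tight group around the gene and a second group far downstream of it. Of the 13, 5 lay in the gene body or across its start, 3 within GATA2-AS1 upstream of the start, 3 in EEFSEC between 77.6 and 83.0 kb downstream, and 2 between genes at 14.6 and 35.9 kb downstream. None of the 28 lists had a peak in the outer 115 kb of the window on the upstream side, beyond 4.83 kb from the start. The sites nearest outside the window lay 372 kb upstream, with a peak in 5 libraries, and 332 kb downstream, also with a peak in 5 libraries. Just inside the window's occupied part, the outermost sites were 4.65 kb upstream, with a peak in 4 libraries, and 83.0 kb downstream, with a peak in 1. Of the 13 sites, 8 had a peak in at least 3 of the 4 libraries of some group and 4 came from a single library, whereas 3615 (20.9%) of all sites in the series came from a single library.

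**Figure D1:**
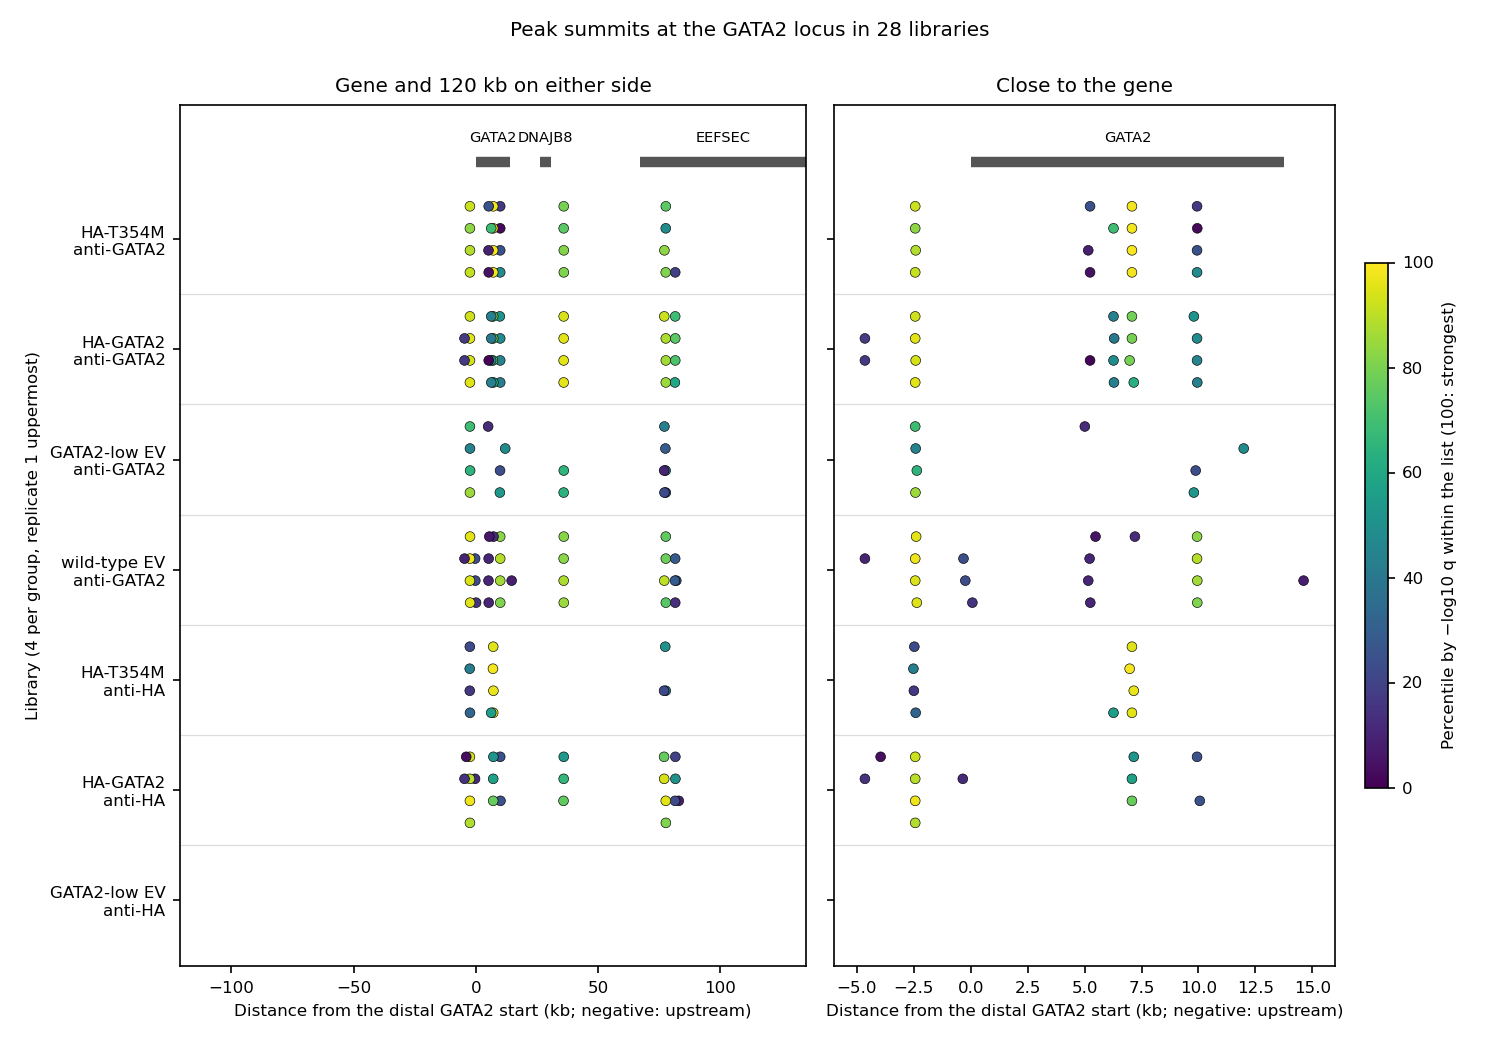
Peak summits of the GATA2 locus in each of the 28 libraries (rows, 4 per group) against distance from the distal GATA2 start in kb, with the whole window at left and the surroundings of the gene at right; EV is the empty vector and colour is the percentile of the peak by −log10 q within its own list. The column of points 2.44 kb upstream is filled in all 24 libraries other than the anti-HA empty-vector ones, and no point lies further upstream than 4.65 kb.

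GATA2-low cells with the empty vector had a peak at fewer sites of the locus, on average, than cells with either tagged protein or wild-type cells. HA-T354M libraries had a peak at 6, 5, 6 and 7 of the 13 sites (6.0 ± 0.816, SD, n = 4) and HA-GATA2 libraries at 6, 7, 8 and 6 (6.75 ± 0.957). GATA2-low empty-vector libraries had 3, 3, 4 and 4 (3.5 ± 0.577) and wild-type libraries 6, 8, 8 and 7 (7.25 ± 0.957). The empty-vector GATA2-low counts did not overlap those of any other anti-GATA2 group, and the other 3 groups overlapped. This rested in part on 1 site, 7.08 kb downstream, where binding and fragments of the virus cannot be told apart. Without it HA-T354M libraries had 5, 4, 5 and 6 sites, HA-GATA2 libraries 5, 6, 7 and 5, GATA2-low empty-vector libraries 3, 3, 4 and 4 and wild-type libraries 5, 8, 8 and 7, so that HA-T354M overlapped the empty vector and the other 2 groups did not. The counts moved with list length, here with the 7.08 kb site included. When each list was held to its 1823 strongest peaks, a library averaged 4.0 sites in HA-T354M and 3.25 in HA-GATA2. It averaged 3.25 in GATA2-low empty-vector and 3.75 in wild-type cells. HA-T354M then stood above HA-GATA2 and wild type where it had stood below both. The 7.08 kb site ranked 52 to 118.5 in HA-T354M lists, 1493 to 4217.5 in HA-GATA2 lists and 5824 in the 1 wild-type list with it. At that length it thus stayed in every HA-T354M list and in no wild-type list. Averages without it at that length were not made. As shares, an HA-T354M library held 46.2% of the locus sites and 27.5% of all sites in the series, an HA-GATA2 library 51.9% and 59.5%, a GATA2-low empty-vector library 26.9% and 13.9%, and a wild-type library 55.8% and 43.7%. With anti-HA, HA-T354M libraries had 3, 2, 3 and 2 sites, HA-GATA2 libraries 7, 7, 7 and 2, and empty-vector libraries 0 each.

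The number of libraries that had a peak at a site was compared between groups by a two-sided Fisher's exact test, with Benjamini-Hochberg adjustment over the sites of the series that could reach 0.05 in that comparison. With 4 libraries against 4, only a split of 4 to 0 can pass, at an unadjusted p of 0.0286, while 3 to 0 or 4 to 1 gives 0.143. Few sites of the locus split that cleanly. Between GATA2-low empty-vector and wild-type cells the test called none of the 11 locus sites with a peak, at either the adjusted or the unadjusted 0.05, while it called 13.7% of the series' sites lower and 0.0179% higher. Without wild-type replicate 1, it called 2 locus sites lower, 81.5 kb downstream and at the distal start. Between HA-GATA2 and the GATA2-low empty vector it called 2 of 9, both higher, where 23.8% of all sites were called higher, and 1 of 8 without the 7.08 kb site. Between HA-T354M and the empty vector it called 0 of 8, where 0% of all sites were called, since the smallest adjusted p of any site was 0.0575. At an unadjusted p under 0.05 it had 1 locus site, the 7.08 kb site, higher in HA-T354M. At that threshold 447 of 7613 sites in the series were higher and 3 lower. For HA-T354M against HA-GATA2 it called 0 of 8, with none at the unadjusted threshold, where 10.2% of all sites were called lower and 0.0344% higher. Against wild-type cells it called 0 of 10 for HA-GATA2, where 7.94% of all sites were called higher and 1.2% lower, and 0 of 10 for HA-T354M, where it called 0%, in both cases with none at the unadjusted threshold. For HA-T354M against wild type the smallest adjusted p of any site was 0.059. At the unadjusted threshold 53 of 11889 sites were higher there and 479 lower.

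The site with a peak in the most libraries lay upstream, in GATA2-AS1, at chr3:128495069-128496370 with its summit 2.44 kb from the distal start. It had a peak in all 16 anti-GATA2 libraries, as did 1200 (6.95%) of all sites, and in all 24 libraries other than the anti-HA empty-vector ones, as did 201. Its fold enrichment, the authors' value at the summit, was 13.6, 10.1, 13.0 and 15.2 in HA-T354M libraries. It was 17.7, 24.9, 21.5 and 25.6 in HA-GATA2 libraries, 10.2, 9.05, 12.2 and 16.1 in GATA2-low empty-vector libraries and 24.8, 27.1, 27.9 and 34.6 in wild-type libraries. Within its list the peak stood at percentile 83.1 to 91.9 in HA-T354M, 92.8 to 95.5 in HA-GATA2, 44.7 to 85.3 in GATA2-low empty-vector and 94.5 to 97.3 in wild-type cells, where 100 is the strongest.

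Fold values depend on each library's background, so the fragments at the summit were recovered from the authors' fold and −log10 p of each peak and divided by the relative depth. On this scale the 2.44 kb upstream site had 299.8 ± 47.9 fragments per depth unit in HA-T354M, 498 ± 54.1 in HA-GATA2, 242.5 ± 92.5 in GATA2-low empty-vector and 539 ± 53.6 in wild-type libraries (SD, n = 4 each). All GATA2-low empty-vector libraries lay below all wild-type libraries, with a ratio of 0.45, against a median of 0.61 over the 1201 sites that all 8 libraries shared, of which 35.0% lay wholly below and 0.0833% wholly above. HA-GATA2 libraries lay wholly above the empty vector, with a ratio of 2.06 where the median site had 1.63 and 37.6% of sites lay wholly above. They overlapped wild-type libraries at a ratio of 0.924. HA-T354M libraries overlapped the empty vector (1.93% of 1192 sites lay wholly above it and 1.26% wholly below), lay wholly below HA-GATA2 at a ratio of 0.602 (63.5% of 2382 sites did so) and wholly below wild type at 0.556 (42.5% of 2230 sites, with 0.493% wholly above).

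The second site with a peak in all 16 anti-GATA2 libraries lay at chr3:128415028-128416890, 77.6 kb downstream and inside EEFSEC. Its summits fell in 2 places, near bases 128415538 and 128416174, and the value of a library is that of its taller summit. Among wild-type libraries, replicate 3 had its summit at base 128416168, with 264.7 fragments per depth unit. The others had theirs at 128415526 to 128415538, with 162.4 to 202.6. It had 131 ± 21.0 fragments per depth unit in HA-T354M, 265.4 ± 17.6 in HA-GATA2, 95.1 ± 22.1 in GATA2-low empty-vector and 198 ± 48.3 in wild-type libraries. HA-GATA2 stood 2.79 times as high as the empty vector with no overlap, where 37.6% of 1185 sites lay wholly above. That ratio was exceeded by few sites, since 95.3% had a lower one. HA-T354M overlapped the empty vector at a ratio of 1.38, where the median site had 0.945. It lay wholly below HA-GATA2 at 0.494, where 63.5% of 2382 sites did so and the median ratio was 0.561. GATA2-low empty-vector libraries lay wholly below wild type at 0.48, where 35.0% of 1201 sites did so and the median ratio was 0.61.

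At the site between genes at chr3:128456326-128457742, 35.9 kb downstream, HA-GATA2 exceeded wild type. Its summit had 44, 53, 51 and 49 fragments in HA-T354M libraries and 94, 125, 130 and 134 in HA-GATA2 libraries. It had 18 in each of the 2 GATA2-low empty-vector libraries with a peak, and 37, 38, 49 and 43 in wild-type libraries. Per depth unit those 2 shallow empty-vector libraries had 110.9 and 117.7, where HA-T354M libraries averaged 103.9 ± 12.1 (90.3 to 116.7). The authors' fold averaged 23.7 ± 2.99 in HA-T354M, 59.8 ± 8.32 in HA-GATA2 and 33.1 ± 5.01 in wild-type libraries (SD, n = 4 each), above the fold means of the 2.44 kb upstream site in the same groups, at 13.0, 22.4 and 28.6. Fold depends on the background, which was lower here. Mean fragments per depth unit went the other way, at 103.9, 279.8 and 161.8 here against 299.8, 498 and 539 upstream. Per depth unit the HA-GATA2 mean was 1.73 times the wild-type mean, with no overlap, where the median site had 1.10 and 11.6% of 3622 sites lay wholly above. HA-T354M was 0.371 times HA-GATA2 with no overlap, where 63.5% of 2382 sites lay wholly below. Only 5.3% of these sites had a lower ratio. Its percentile within the list was 74.4 to 81.4 in HA-T354M, 93.8 to 95.9 in HA-GATA2 and 82.2 to 87.8 in wild-type cells.

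A weaker EEFSEC site at chr3:128410947-128412417, 81.5 kb downstream, was 1 of the 2 called between HA-GATA2 and the empty vector. Its summit had 54, 68, 64 and 46 fragments in HA-GATA2 libraries, and none of the 4 GATA2-low empty-vector libraries had a peak (Fisher's exact test, adjusted p = 0.0311). HA-T354M had it in 1 of 4 libraries, with 25 fragments, and wild type in 3 of 4 libraries, with 17, 15 and 13. Leaving out empty-vector replicate 1, 2 or 3 ended the call, at adjusted p between 0.0518 and 0.0521. Its unadjusted p stayed at 0.0286 (Fisher's exact test), so only the adjustment changed. The greater depth of the HA-GATA2 libraries moved with this call. The part of depth in this call was not tested.

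Inside the gene, the site at chr3:128482702-128484003, 9.94 kb downstream of the distal start, departed from the upstream and downstream sites. Its summit had 30, 35, 36 and 44 fragments in HA-T354M libraries and 43, 52, 49 and 50 in HA-GATA2 libraries. The GATA2-low empty-vector replicates 3 and 4, the ones with a peak, had 14 and 20, and wild-type libraries had 57, 71, 67 and 55 although they were shallower than those of tagged cells. The authors' fold was 14.2, 11.6, 11.5 and 11.3 in HA-GATA2 libraries against 21.0, 25.7, 26.6 and 23.7 in wild-type libraries, and the percentile 43.2 to 51.6 against 80.7 to 88.7. In HA-T354M libraries the fold was 7.07, 6.17, 8.29 and 10.7 and the percentile 2.39 to 47.8.

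Scaled by depth, the 9.94 kb site had 77.3 ± 19.9 fragments in HA-T354M and 112 ± 8.3 in HA-GATA2 libraries, against 238 ± 31.4 in wild-type libraries. HA-GATA2 lay wholly below wild type at a ratio of 0.472, and leaving out any 1 library moved this between 0.446 and 0.496. Over 3622 sites the median ratio was 1.10, 5.96% lay wholly below wild type, and 0.3% had a lower ratio than this site. HA-T354M lay wholly below wild type at 0.324, where the median of 2230 sites was 0.627, 42.5% lay wholly below and 0.2% had a lower ratio. HA-T354M and HA-GATA2 overlapped at a ratio of 0.688. The 2 GATA2-low empty-vector libraries with a peak had 86.3 and 130.8.

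The same difference stood without any depth estimate. Fragments at the 9.94 kb site divided by those at the 2.44 kb upstream site of the same library came to 0.214 to 0.295 in HA-T354M and 0.215 to 0.240 in HA-GATA2 libraries, against 0.413 to 0.496 in wild-type libraries. In the 2 GATA2-low empty-vector libraries with a peak the quotient was 0.345 and 0.40. For the 35.9 kb site the same quotient was 0.314 to 0.379 in HA-T354M and 0.525 to 0.594 in HA-GATA2, against 0.221 to 0.363 in wild-type libraries. In the 2 GATA2-low empty-vector libraries with a peak there it was 0.514 and 0.310. For the 77.6 kb site it was 0.429 to 0.4485 in HA-T354M and 0.494 to 0.575 in HA-GATA2 libraries. There it was 0.293 to 0.543 in GATA2-low empty-vector and 0.285 to 0.4815 in wild-type libraries. At 9.94 kb the quotients of both tagged groups lay wholly below those of wild type. At 35.9 and 77.6 kb, by contrast, those of HA-T354M overlapped wild type and those of HA-GATA2 lay above it. The quotient was taken at sites of the locus only, so the share of all sites that separate in this way is not known. GATA2-low cells differ from wild-type cells at this gene itself, and fewer copies of the sequence and less binding cannot be told apart.

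**Figure D2:**
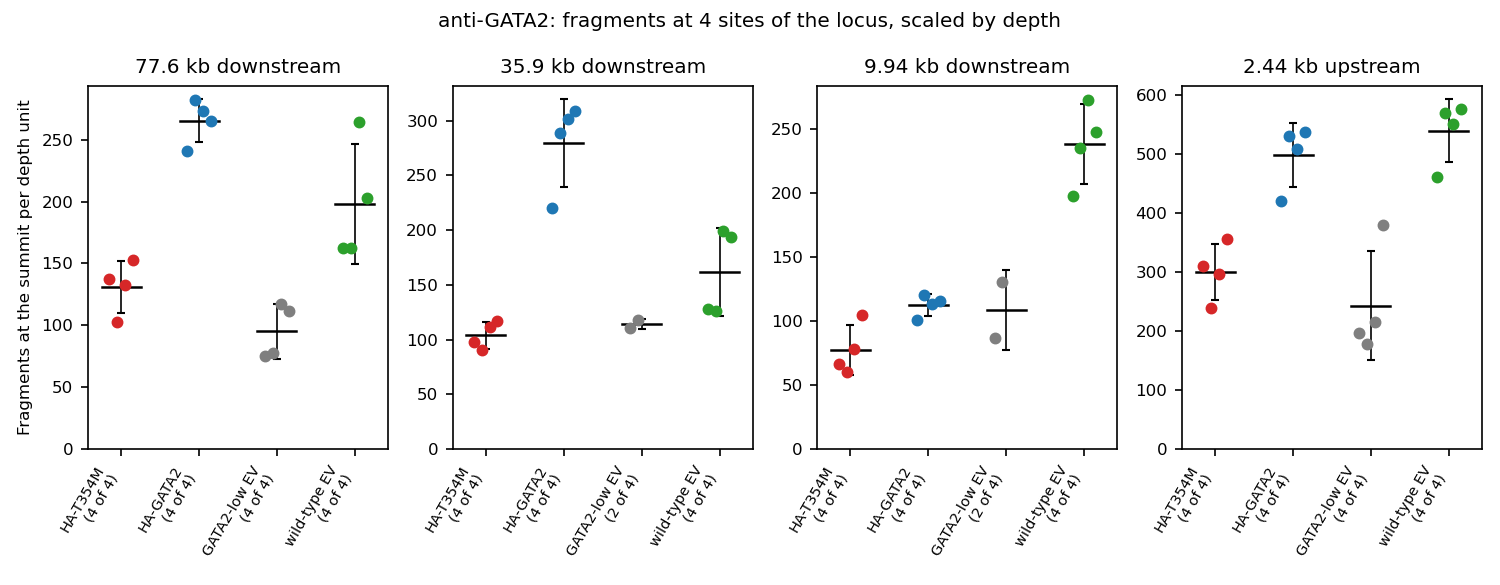
Fragments at the summit per depth unit (linear axis from 0) at 4 sites of the locus in the anti-GATA2 libraries; points are libraries with a peak, whose number of 4 stands under each group, lines are means, error bars are SD, and EV is the empty vector. HA-GATA2 reaches wild-type levels 2.44 kb upstream (498 against 539) and exceeds them 35.9 kb downstream (279.8 against 161.8), but has 112 against 238 at 9.94 kb.

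The peaks at 9.94 kb also differed in width. They averaged 437 ± 97.4 bp in width in HA-T354M and 482.8 ± 73.9 bp in HA-GATA2 libraries, against 879.8 ± 222 bp in wild-type libraries (SD, n = 4). A right edge at base 128483409 was shared by 6 peaks, 2 from HA-T354M, 1 from HA-GATA2 and 2 from the empty vector with anti-GATA2 and 1 from HA-GATA2 with anti-HA, and by none from wild-type cells. Another right edge, at base 128483587, was shared by 2 wild-type peaks and 1 HA-GATA2 peak with anti-GATA2. Edges shared by libraries were common in the series, at 55.2% of peaks at sites with at least 2 peaks.

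Another site inside the gene, at chr3:128485735-128487032 and 7.08 kb downstream, was found almost wholly in cells that carried a GATA2 virus. It was set apart after its values were seen, because the gene table used here has no exons and sites over coding exons could not be picked out by annotation. With anti-GATA2, all 4 HA-T354M and all 4 HA-GATA2 libraries had it. With anti-HA, 4 of 4 HA-T354M and 3 of 4 HA-GATA2 libraries did. A peak was found in none of the 8 empty-vector GATA2-low libraries and in 1 of 4 wild-type libraries. The anti-GATA2 split between HA-GATA2 and the empty vector was called (Fisher's exact test, adjusted p = 0.0311) and that between HA-T354M and the empty vector was not (adjusted p = 0.0575). Both were splits of 4 to 0, and 0.0575 was the smallest adjusted p of any site in the HA-T354M comparison. The call for HA-GATA2 was also lost without empty-vector replicate 1, 2 or 3. Its unadjusted p stayed at 0.0286 (Fisher's exact test), so only the adjustment changed.

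HA-T354M gave more fragments than HA-GATA2 at this site with anti-GATA2. With anti-GATA2 its summit had 150, 180, 197 and 170 fragments in HA-T354M libraries and 83, 94, 89 and 84 in HA-GATA2 libraries. Per depth unit these were 368 ± 58.0 and 202.9 ± 11.3, a ratio of 1.81 with no overlap. Of 2382 sites that all 8 libraries shared, this was the single site (0.042%) at which all HA-T354M libraries lay above all HA-GATA2 libraries, and the median ratio was 0.561. In rank it stood at percentile 98.1 to 99.0 in HA-T354M lists, 62.8 to 79.0 in HA-GATA2 lists and 12.3 in the 1 wild-type list.

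With anti-HA the 7.08 kb site differed less between the proteins, and its background was high. The summit had 121, 121, 122 and 119 fragments in HA-T354M libraries and 88, 96 and 113 in the 3 HA-GATA2 libraries with a peak. Per depth unit these were 295 to 339 in HA-T354M and 222 to 302 in HA-GATA2 libraries, and the groups overlapped. The peak caller's background at the strongest peak of the site was 20.9 to 25.4 fragments in HA-T354M and 22.6 to 24.8 in HA-GATA2 anti-HA libraries. That was 10.3 to 11.1 times the median background of the same list in HA-T354M and 16.0 to 22.2 times in HA-GATA2 libraries, while the other sites of the locus in these lists had 0.48 to 3.0 times. The difference between the proteins came with the medians. Over the lowest background of the same list it was 58.2 to 61.9 times in HA-T354M and 60.25 to 61.3 times in HA-GATA2 libraries. In the anti-GATA2 libraries of tagged cells the background at the strongest peak was 1.69 to 4.0 on the caller's scale. The caller scaled those libraries by 0.5 to 0.706 and did not scale the anti-HA ones, so the 2 backgrounds are not in the same unit. Fold enrichment was accordingly low with anti-HA, at 4.62, 5.30, 5.61 and 5.30 in HA-T354M and 3.57, 3.76 and 4.84 in HA-GATA2 libraries, although the HA-T354M peaks stood at percentile 95.0 to 98.4 of their lists.

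**Figure D3:**
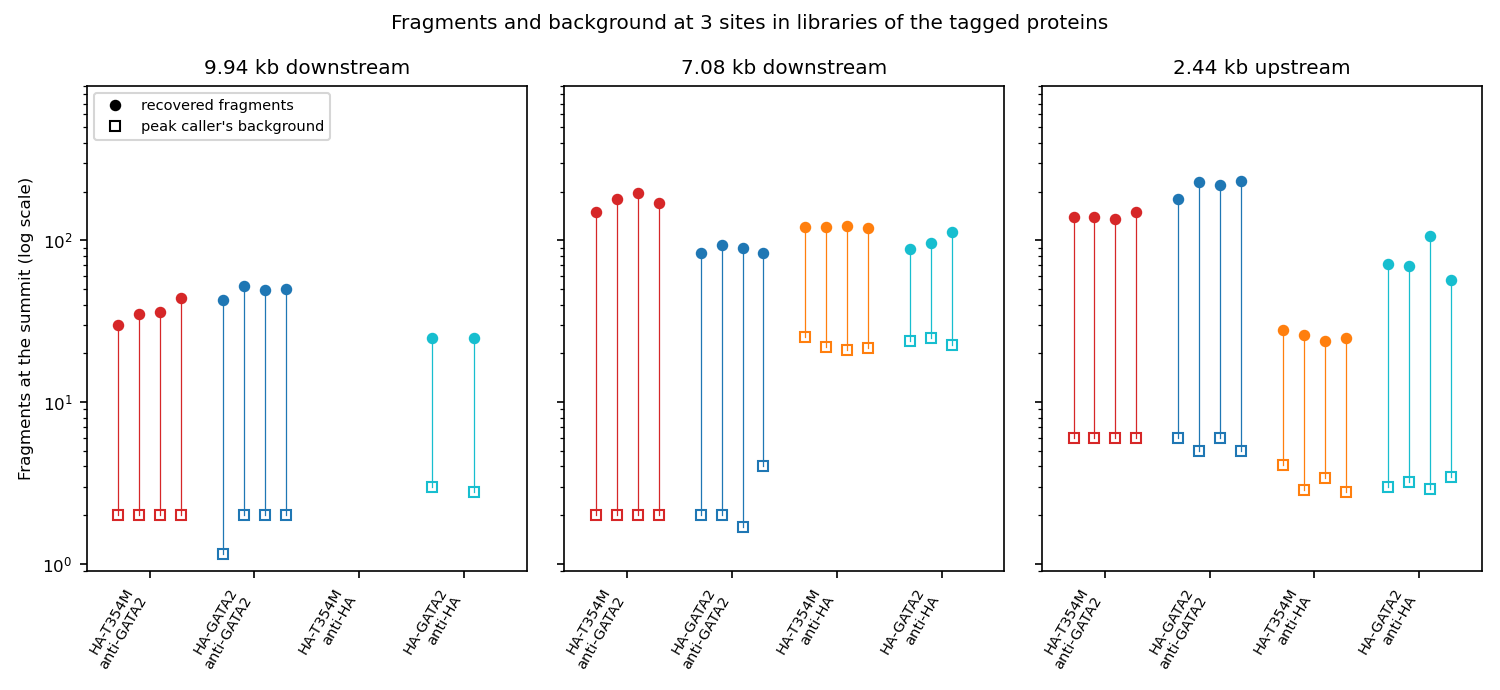
Fragments at the summit (filled points) and the peak caller's background (open squares), on a log axis, at 3 sites in each library of the tagged proteins, with 4 positions per group and a gap where a library had no peak. The background is on the caller's scale, which was reduced in the anti-GATA2 libraries, and the fragments are not scaled. At 7.08 kb the anti-HA background stands at 20.9 to 25.4 fragments, and HA-T354M lies above HA-GATA2 with both antibodies in fragments not scaled by depth, while HA-T354M lies below HA-GATA2 at 2.44 kb upstream.

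The outline of the 7.08 kb site was sharp. A left edge at base 128485754 was shared by 7 peaks, 3 from HA-T354M and 4 from HA-GATA2 anti-GATA2 libraries, and a right edge at base 128487032 by 6 peaks, 5 of them from anti-GATA2 libraries of tagged cells and 1 from HA-T354M with anti-HA. In all, 86.4% of its 22 peaks shared an edge with another, against 83.3% of the 24 peaks of the 2.44 kb upstream site. With anti-GATA2, 3 of 4 HA-T354M libraries gave 1 broad peak here, whereas HA-GATA2 libraries gave a pair of separate peaks. Binding to the resident gene and fragments of the integrated virus cannot be told apart in peak lists, and counts of locus sites are therefore also given without the 7.08 kb site.

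**Figure D4:**
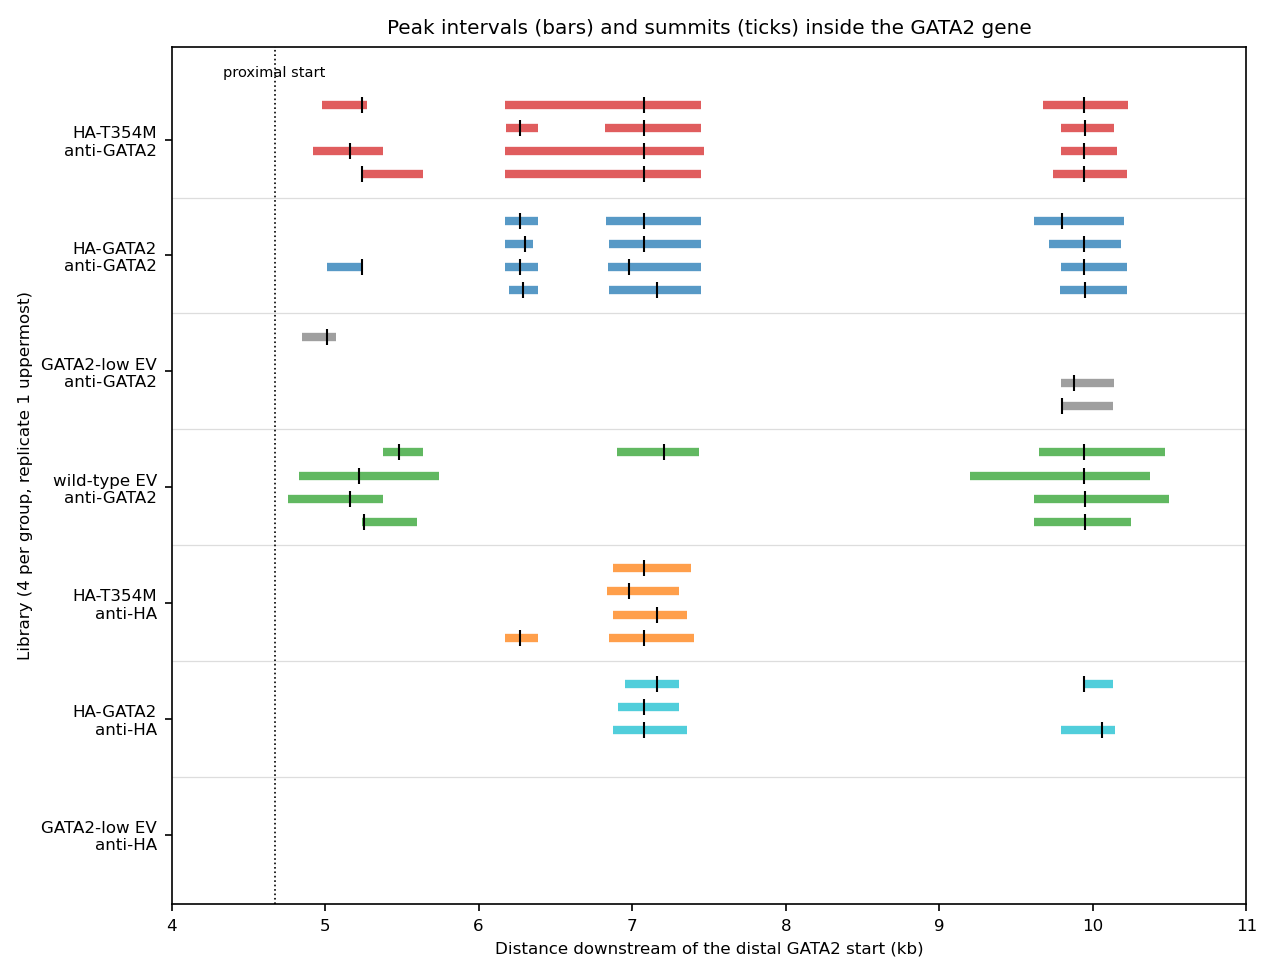
Peak intervals (bars) and summits (ticks) in each library between 4 and 11 kb downstream of the distal GATA2 start, with the proximal start as a dotted line; EV is the empty vector. Peaks around 7.08 kb appear in the libraries of the tagged proteins and in 1 wild-type library, and the wild-type peaks at 9.94 kb are the widest.

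Sites at the promoters themselves were weak, and the one across the distal start was found mostly in wild-type cells. A site at chr3:128487462-128488441, 5.24 kb downstream of the distal and 569 bp downstream of the proximal start, lay 40 bp from the printed proximal promoter. With anti-GATA2 it was present in 3 of 4 HA-T354M, 1 of 4 HA-GATA2, 1 of 4 GATA2-low empty-vector and 4 of 4 wild-type libraries, and no anti-HA library had it. Its percentile reached no higher than 24.7 in any list, and its summits had 13 to 39 fragments. Per depth unit the 3 HA-T354M libraries averaged 72.5 ± 12.7, the HA-GATA2 library had 53.3, the empty-vector library 70.3, and the wild-type libraries averaged 73.2 ± 20.3. A site across the distal start, at chr3:128493054-128493673, overlapped the printed distal promoter. It had a peak in 3 of 4 wild-type libraries, with 17, 16 and 14 fragments, in none of the 12 anti-GATA2 libraries of GATA2-low cells and in 1 HA-GATA2 library with anti-HA. The split between 0 GATA2-low empty-vector and 3 wild-type libraries gave an unadjusted p of 0.143 (Fisher's exact test).

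The remaining 5 sites had a peak in at most 2 libraries of any group. A site 4.65 kb upstream, at chr3:128497552-128498034, had a peak in 2 HA-GATA2 and 1 wild-type library with anti-GATA2 and in 1 HA-GATA2 library with anti-HA, at percentile 10.1 to 17.4. Single peaks lay 3.96 kb upstream and 83.0 kb downstream in HA-GATA2 anti-HA libraries, 14.6 kb downstream in wild-type replicate 3, and 12 kb downstream, inside the gene, in GATA2-low empty-vector replicate 2. The peak at 12 kb stood at percentile 48.3 of its list and the other 3 at 3.63 to 8.59. It had 37 fragments, where the 2.44 kb upstream site of the same library had 30, and its background was 4.0 times the median of that list.

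With anti-HA, which sees the tagged proteins alone, the empty-vector lists had no peak at the locus, so the antibody background over these sites was not detectable at their depth. HA-GATA2 was called against the empty vector at 2 of 10 sites, 2.44 kb upstream and 77.6 kb downstream (Fisher's exact test, adjusted p = 0.0286 each), where 25.3% of all sites were called. Without HA-GATA2 replicate 4, whose list was the shortest of its group, 5 locus sites were called. Without any 1 empty-vector library none was, at adjusted p between 0.0554 and 0.0555. The unadjusted p of the 2 sites stayed at 0.0286 (Fisher's exact test), so only the adjustment changed. HA-T354M was called at 2 of 3 sites, 2.44 kb upstream and 7.08 kb downstream (Fisher's exact test, adjusted p = 0.0286 each), where 22.3% of all sites were called, and at 1 of 2 without the 7.08 kb site. The empty-vector lists held 1 to 6 peaks, so a call here only restates a peak in all 4 libraries of a tagged protein. Of the sites that entered the adjustment, 1753 of 1754 were called for HA-GATA2 and 241 of 241 for HA-T354M.

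Both tagged proteins could be compared in every library at the upstream site alone. With anti-HA the 2.44 kb upstream site had 68.2, 70.3, 66.7 and 70.2 fragments per depth unit in HA-T354M libraries and 179, 170.6, 283 and 130.3 in HA-GATA2 libraries. The means were 68.9 ± 1.7 and 190.7 ± 65.0 (SD, n = 4 each), a ratio of 0.361 with no overlap, where 73.4% of 229 sites lay wholly below and the median ratio was 0.435. The 77.6 kb site was present in 2 of 4 HA-T354M and 4 of 4 HA-GATA2 libraries, the 35.9 kb site in 0 and 3, the 81.5 kb site in 0 and 3 and the 9.94 kb site in 0 and 2. None of the 10 locus sites was called between the proteins with anti-HA, none passed the unadjusted threshold, and 13.6% of all sites were called lower in HA-T354M.

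Genes of the GATA2 circuit were compared as a list of 12: TAL1, LYL1, LMO2, RUNX1, ERG, FLI1, GATA1, ZFPM1, KIT, HDC, SAMD14 and MYB. A gene counted if a called site lay in its body or within 10 kb, and 10 of the 12 had a site, while FLI1 and SAMD14 had none. The same count was made over all 8409 coding genes with a site. These held a median of 1 site against 5 in the list, and a gene with more sites has more chances of a call, so the shares cannot be set against each other one to one. In GATA2-low empty-vector against wild-type cells 4 of the 10 genes had a site called lower (TAL1, RUNX1, ZFPM1 and MYB), as did 17.6% of all genes, and none had one called higher, as did 0.0119%. HA-GATA2 against the empty vector gave 7 with a site called higher (TAL1, LMO2, RUNX1, GATA1, ZFPM1, KIT and MYB), where 27.0% of all genes had one, and HA-T354M gave 0, where no gene had one. HA-T354M against HA-GATA2 gave 3 with a site called lower (LMO2, GATA1 and MYB), where 13.4% of all genes had one, and none called higher, where 0.0476% had one. HA-GATA2 against wild type gave 2 called higher (GATA1 and MYB), where 11.5% of all genes had one, and none called lower, where 3.2% had one. With anti-HA against the empty vector, 3 genes were called in HA-T354M (LYL1, ZFPM1 and HDC), where 2.28% of all genes were, and 8 in HA-GATA2, where 13.5% were. Between the proteins 5 were called lower in HA-T354M with anti-HA, where 7.78% of all genes were.

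The genes whose number of sites with a peak ran most like that of GATA2 were found by Spearman correlation over the 28 libraries, among 2022 genes with at least 3 sites in the body or within 10 kb. They were KIF13B (0.924), ASIC4 (0.924), ISOC2 (0.913), SLC44A2 (0.912) and MLXIP (0.911), against a median of 0.730 over all genes. These libraries share list length, with which the GATA2 number itself correlated at 0.865, so the likeness is a description.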

How the data were processed

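CUT&Tag peak lists of 28 libraries in 7 groups of 4 were analysed, and 8 IgG libraries described for the series were not used here. Titles gave the groups and replicate numbers, also for 1 library of GATA2-low empty-vector cells (anti-GATA2, replicate 1) whose genotype is labelled wild-type. The submitters' processing notes name MACS2 2.2.7.1, deepTools 3.5.3, Bowtie2 2.2.5, cutadapt 3.3 and FastQC, and the build hg38. Peaks were called by library. The deposited fold enrichment is a linear ratio at the summit, the deposited p and q are −log10 values with a lowest −log10 q of 6.0, and the deposited score is derived from q. These are the authors' values per peak, used to describe and rank peaks within a list and to recover fragments. Coordinates are printed 1-based.

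Of 120964 peaks, 455 off chromosomes 1 to 22 and X were left out and 120509 were merged, with an overlap of at least 1 bp, into 17277 sites. Percentiles rank peaks by −log10 q within a list. Fisher's exact test (scipy 1.17.1, Python 3.11.15) was run over all sites and adjusted by Benjamini-Hochberg, over sites whose margins allow p of 0.05 or less, in 9 comparisons. A call depends on how many other sites of the series split in the same way. Simulated data were used to test the scripts. Fragments and background at each summit were recovered from the fold and −log10 p on the basis that the caller tests whole fragments by a Poisson law, with a match within 0.03% for 98.99% to 100.0% of peaks in each library outside the anti-HA empty-vector group, whose lists were too short. The relative depth is the list's lowest shared background divided by the caller's scaling (0.5 to 0.706 in the 8 anti-GATA2 libraries of tagged cells, none elsewhere). Recovered fragments, quotients within a library and counts without the 7.08 kb site were added after the data were seen. Several comparisons share control libraries.

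Gene positions and promoter sequences came from RefSeq tables of GRCh38.p14, which hold no exons, so exon and intron classes are not given. Sites with a peak in at least 3 of 4 libraries of a group were described one by one, and the others by range. The members and gene lists were chosen with earlier results of these data known.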

Additional observations from a re-analysis of the deposited data

Results flagged for a closer look

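Of 29 sets of 4 library values checked for a value far from the other 3 (Dixon's test), 4 were flagged, and chance flags about 1 set in 20. In HA-GATA2 cells with anti-HA, replicate 4 had a peak at 2 sites of the locus where the other libraries had 7 each, and its list was the shortest of the group, with 1912 peaks. The site 7.08 kb downstream stood at percentile 62.79 in HA-GATA2 anti-GATA2 replicate 4, below 78.9 to 79.0 in the other 3, and its background there was 4.0 on the caller's scale. In HA-T354M anti-GATA2 replicate 3 the same site stood at percentile 98.971, above 98.1 in the others. The site beside the proximal start stood at percentile 5.827 in wild-type replicate 1, below 10.3 to 10.9 in the other wild-type libraries.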

How the results depend on the processing

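All 6 calls at the locus, 2 of them at the 7.08 kb site, were lost under a wider adjustment. Adjusted over all sites that any library had, 0 sites were called for HA-T354M or HA-GATA2 against the empty vector with either antibody. Replicate numbers did not pair libraries (correlations of same-numbered libraries from -0.068 to 0.127), and with the replicate number as a block, where the smallest p is 0.125, 0 sites were called. With peaks of −log10 q of at least 15, 1 site was called for HA-T354M against the empty vector with each antibody, 1 (lower) for HA-T354M against HA-GATA2 with each antibody, and 2 for HA-GATA2 against wild type. The calls for HA-T354M against the empty vector and 1 of the 2 against wild type lay at the 7.08 kb site. With lists of equal length, 0 were called for HA-GATA2 against the empty vector and 1 each for HA-T354M against the empty vector, HA-GATA2 against wild type and HA-T354M against wild type. All of these calls lay at the 7.08 kb site, for HA-GATA2 at its second summit, near base 128486932. Comparisons with the short anti-HA empty-vector lists could not be made. With peaks trimmed to 100 bp around the summit, 1 was called for HA-GATA2 against wild type and 1 for HA-GATA2 against the empty vector with anti-HA. The call against wild type again lay at the second summit of the 7.08 kb site. The 77.6 kb site lost its anti-HA call when trimmed, with an unadjusted p of 0.429 (Fisher's exact test). Within 50 kb, 1 was called for HA-GATA2 against the empty vector with each antibody. These lay at 7.08 kb with anti-GATA2 and 2.44 kb upstream with anti-HA. Without the 7.08 kb site, an alternative chosen after seeing the data, 1 was called for HA-GATA2 against the empty vector with anti-GATA2 and 1 for HA-T354M against it with anti-HA, and sites per library came to 5.0 in HA-T354M and 5.75 in HA-GATA2 anti-GATA2 and 1.5 in HA-T354M anti-HA libraries. The cause of the other shifts was not tested, beyond the fewer sites in a smaller window.

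Leaving out 1 library gave 0 to 2 calls for the empty vector against wild type (2 without wild-type replicate 1), 0 to 2 for HA-GATA2 against the empty vector with anti-GATA2, 0 to 5 with anti-HA, and 0 to 2 for HA-T354M against HA-GATA2 with anti-HA (2 without HA-GATA2 replicate 4). The counts of 0 for HA-GATA2 against the empty vector came without an empty-vector library, through the adjustment alone. Sites per library came to 7.75 trimmed, 4.75 within 50 kb and 3.25 at equal length in HA-GATA2 anti-GATA2 libraries. They came to 4.25 at the stricter q, 4.75 within 50 kb and 4.0 at equal length in HA-T354M, and to 2.5 at the stricter q and 2.5 within 50 kb in GATA2-low empty-vector libraries. In wild-type libraries they came to 4.0 at the stricter q, 5.5 within 50 kb and 3.75 at equal length, and in HA-T354M anti-HA libraries to 1.25 at the stricter q. The order of the groups by these means turned in places. HA-T354M lay above HA-GATA2 and wild type at equal length, and above wild type at the stricter q, and HA-GATA2 (7.75) lay above wild type (7.5) when trimmed. These means include the 7.08 kb site. At equal length and at the stricter q, every HA-T354M list kept that site and no wild-type list did. Trimming counted its 2 summits as separate sites, and all HA-GATA2 anti-GATA2 libraries had both. The order without that site under these settings was not examined. The shallow empty-vector GATA2-low libraries limit what a missing peak shows.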
